A study of Rattus norvegicus with 18 samples.

Results

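Expression of 10 genes of the gp130 cytokine pathway was followed in the rat retina: the receptor chains Il6st, Osmr and Lifr, the kinase Jak2, the transcription factor Stat3, the early target gene Cebpd, and the feedback inhibitors Socs3, Socs1, Socs2 and Cish. The genes were taken as a list, and each was found in the array's gene table under 1 probe set, so that all 10 were measured, out of 14506 genes and 29214 probe sets on the array.

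RNA came from adult Sprague Dawley rats (P80 to P120), all raised in cyclic light of 5 lux and fed a vegetable matrix that also served as the vehicle for saffron. There were 6 groups with 3 retinas each, and in the study's account each retina came from a different animal. The Control group had neither pretreatment nor bright light. The PBM group received photobiomodulation, a far-red light treatment, for 3 min a day over 5 days, and the Saffron group was fed saffron at 1 mg/kg a day for 3 weeks. The LD (light damage) group was exposed to bright light for 24 h, and the PBMLD and SafLD groups were exposed in the same way after PBM or saffron. The descriptions give 1000 lux for all exposed groups, while the source names of the LD samples give 100 lux and those of PBMLD and SafLD give 1000. The study used both sexes, and the sex behind each array is not given in the labels used here. Whole retinas were extracted, so that fewer cells of a type and less RNA per cell cannot be told apart.

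Cytokines of the interleukin-6 and leukemia inhibitory factor family bind receptors that share the chain gp130, the product of Il6st. Osmr and Lifr pair with gp130 to receive oncostatin M and leukemia inhibitory factor, Janus kinases such as Jak2 bound to the receptors phosphorylate STAT3, and STAT3 then enters the nucleus and switches on genes that include its own gene, Cebpd and Socs3. The SOCS proteins and CIS, the product of Cish, shut the receptors down again, SOCS3 acting mainly on gp130, SOCS1 mainly on the interferon receptors, and SOCS2 and CIS mainly on receptors that signal through STAT5. In the retina this pathway is known for its activation in Muller glia and photoreceptors after injury, where leukemia inhibitory factor takes part in a survival response.

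The binding sites of activated STAT proteins have the form TTCNNNGAA, a palindrome that reads the same on both strands. In the RefSeq promoter table for GRCr8, which gives the 250 bases before and the first 50 bases after 1 annotated start per gene, 8 of the 10 genes were present, and Socs2 and Cebpd had no entry. The palindrome occurred in 8.87% of all 33469 promoters in the table. It was found in the windows of Cish and Socs1, and its letters did not occur in those of Stat3, Socs3, Osmr, Il6st, Lifr and Jak2. The windows of Socs3 and Il6st run into the start of the protein-coding sequence, so they may lie downstream of the promoter in use. For these genes the absence therefore says nothing about the promoter. The start used in the retina is not known for any of the genes. Cish held 4 copies, a number that 2 of the 33469 promoters reached (0.00598%) and none exceeded. The 2 windows are shown because Cish and Socs1 differed most among the inhibitors in the arrays, with the palindromes in capitals. Cish lies at chr8:116850719-116851018 on the plus strand and Socs1 at chr10:5389324-5389623 on the plus strand.
Cish: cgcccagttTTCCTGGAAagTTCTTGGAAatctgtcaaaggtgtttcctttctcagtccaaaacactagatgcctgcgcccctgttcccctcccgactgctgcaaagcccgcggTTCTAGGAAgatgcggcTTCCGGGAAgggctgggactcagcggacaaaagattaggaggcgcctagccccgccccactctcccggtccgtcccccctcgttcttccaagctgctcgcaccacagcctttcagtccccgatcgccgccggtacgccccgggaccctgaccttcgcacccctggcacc
Socs1: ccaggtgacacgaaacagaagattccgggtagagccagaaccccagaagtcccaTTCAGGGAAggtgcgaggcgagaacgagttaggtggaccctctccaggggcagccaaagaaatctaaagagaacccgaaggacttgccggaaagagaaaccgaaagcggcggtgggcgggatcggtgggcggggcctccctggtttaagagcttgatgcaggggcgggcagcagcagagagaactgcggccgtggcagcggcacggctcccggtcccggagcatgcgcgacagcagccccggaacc
In Cish the palindromes TTCCTGGAA and TTCTTGGAA began at positions -241 and -230 from the start, and TTCTAGGAA and TTCCGGGAA at positions -136 and -119. In Socs1 the sequence TTCAGGGAA began at position -196. A site of the form TGANTCA, bound by AP-1 factors and likewise palindromic, was found in the Osmr window alone among the 8 (7.33% of all promoters), and the C/EBP-type site TTGCNNAA, sought on both strands, was found in none of them (10.6% of all promoters). The search looked at letters in these windows alone, and binding was not measured.

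Values are log2 intensities after RMA summarisation by the authors, so that a difference of 1 is a doubling. Array medians ran from 6.12 to 6.19, no 2 arrays held the same values, and arrays correlated with each other at r = 0.976 to 0.994. Markers of rods (9 of 11 listed genes) averaged 12.66 to 12.84 in unexposed retinas and 12.08 to 12.63 in exposed ones, and Muller glia markers (7 of 8) averaged 10.20 to 10.70 in all. Lens markers (14 of 16 listed genes) marked some arrays: they averaged 11.40, 9.20 and 11.29 in the LD arrays, 9.24 to 9.77 in Control, 9.17 to 9.62 in PBM, 10.03 to 10.79 in Saffron, 9.59 to 10.55 in PBMLD and 9.22 to 10.08 in SafLD. Pigment epithelium markers (7 of 8) averaged 6.93, 6.40 and 7.10 in LD, 5.59 to 6.59 in Control, 5.34 to 6.03 in PBM, 5.78 to 5.88 in Saffron, 4.89, 6.74 and 6.03 in PBMLD and 5.48 to 6.22 in SafLD. The mean of the microglia and macrophage markers (all 10) lay between 5.33 and 5.71 on every array, while single markers differed in both directions in LD against Control: P2ry12 was called lower (-1.04±0.24, adjusted p = 0.0419, limma), and Ptprc and Cd68 were at 0.68±0.27 and 0.57±0.24 and were not called (adjusted p = 0.379 and 0.45).

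Differences between groups were estimated with limma in one fit of all 18 arrays. A gene was called when it differed by more than 2-fold with a Benjamini-Hochberg adjusted p, taken over all probe sets, below 0.05, and the error after each difference is its standard error, from 3 arrays per group. The light response could be read 3 times on separate retinas: LD against Control, PBMLD against PBM, and SafLD against Saffron share no array. Of the 10 genes, 6 were called higher in LD (Stat3, Socs3, Cish, Osmr, Il6st and Cebpd), against 0.531% of all probe sets called. The same 6 genes were called higher in SafLD (background 0.825%), and 4 of them, Stat3, Socs3, Cish and Cebpd, in PBMLD (background 0.147%). No member was called lower. In LD all 3 exposed retinas lay above all 3 unexposed ones in 8 of the 10 genes, against 7.54% of all probe sets. In PBMLD this held for 6 genes (7.17% of all probe sets) and in SafLD for 8 (10.7%). In LD the median difference over the 10 genes was 1.32 (all probe sets, -0.02), for PBMLD it was 0.87 (0.00), and for SafLD 1.09 (0.01).

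**Figure D1:**
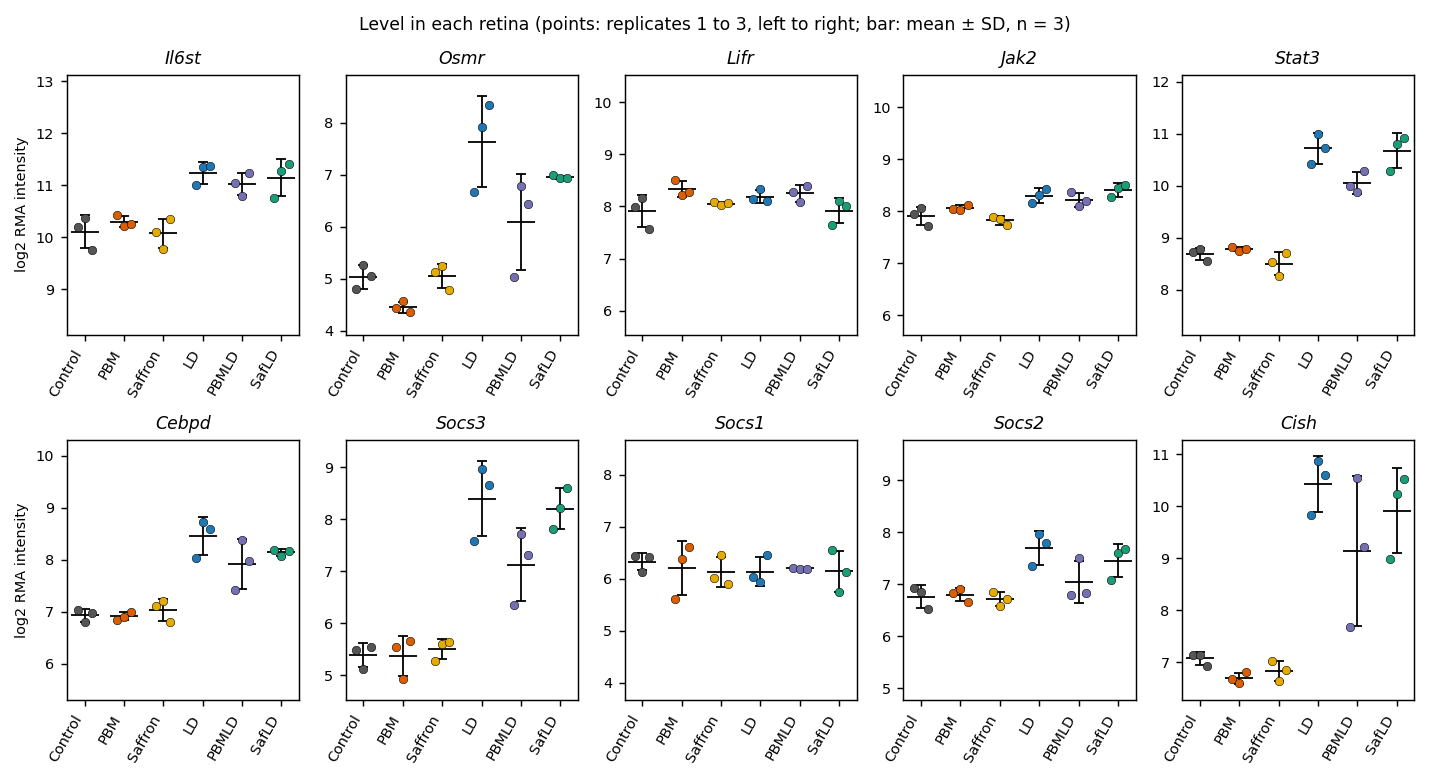
Log2 RMA intensity of each of the 10 genes (vertical axes, all of at least 5 log2 units but centred on each gene) in the 6 groups. Points are single retinas in the order of replicates 1 to 3, and bars give mean ± SD of the 3 retinas; Stat3, Socs3, Cish, Il6st and Cebpd separate all 9 light-exposed retinas from all 9 unexposed ones, while Socs1 and Lifr do not.

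Among the receptor chains, Il6st and Osmr were called higher in light and Lifr was not. Il6st, the signal-transducing chain that the whole cytokine family shares, had levels of 10.19, 10.37 and 9.76 in Control and 10.99, 11.34 and 11.37 in LD. All 3 LD retinas lay above all Control retinas, and the difference was 1.13±0.20 (2.19-fold, adjusted p = 0.0065, limma). Levels were 10.42, 10.21 and 10.25 in PBM against 11.03, 10.79 and 11.23 in PBMLD, and 10.10, 9.77 and 10.34 in Saffron against 10.74, 11.28 and 11.40 in SafLD. Both pairs of groups were without overlap. The difference was called in SafLD (1.07±0.20, adjusted p = 0.00694, limma) and not in PBMLD (0.73±0.20, adjusted p = 0.192). The Il6st calls sat close to the 2-fold limit: without Control 3 the LD difference was 0.96, and without Saffron 2 or SafLD 3 the SafLD call was lost (adjusted p = 0.0455 at under 2-fold, and 0.0588).

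Osmr, the chain that makes gp130 a receptor for oncostatin M, stood at 4.80, 5.26 and 5.05 in Control and 6.66, 7.91 and 8.34 in LD. The ranges were well apart, with LD 1 lowest of its group, and the difference was 2.60±0.38 (6.06-fold, adjusted p = 0.0013, limma). In the SafLD retinas the levels were 6.99, 6.94 and 6.94 against 5.14, 5.24 and 4.78 in Saffron (1.90±0.38, adjusted p = 0.0114, limma). The PBMLD retinas were uneven, at 5.04, 6.78 and 6.43, against 4.44, 4.57 and 4.36 in PBM. PBMLD 1 thus lay within the range of the Control and Saffron retinas, although above every PBM retina. The PBMLD difference was 1.63±0.38 and was not called (adjusted p = 0.0906, limma); without PBMLD 1 it was 2.15 and called (adjusted p = 0.00435), and it was also called without LD 1 (adjusted p = 0.0278). The SafLD call was lost without SafLD 2 or SafLD 3 (adjusted p = 0.0506 and 0.0547). Mean Osmr intensity over all arrays fell in the lower part of the array (percentile 46.6).

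Lifr, the receptor chain for leukemia inhibitory factor, was measured at 7.997, 8.16 and 7.57 in Control and 8.14, 8.33 and 8.10 in LD. The ranges overlapped, and the difference was 0.28±0.16 (95% interval -0.05 to 0.61, adjusted p = 0.614, limma). It was -0.08±0.16 in PBMLD against PBM and -0.14±0.16 in SafLD against Saffron. Each of these 3 intervals stayed within 0.61 on either side of 0, that is, within less than a doubling in either direction.

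Jak2, which phosphorylates STAT proteins at the receptor, moved little. Its levels were 7.95, 8.06 and 7.72 in Control and 8.15, 8.32 and 8.43 in LD, just apart. The difference of 0.39±0.12 did not pass (adjusted p = 0.192, limma). In SafLD the levels were 8.27, 8.45 and 8.51 against 7.89, 7.85 and 7.73 in Saffron, and the difference of 0.58±0.12 passed the adjusted p (0.0166, limma) but was under 2-fold. In PBMLD (8.36, 8.10 and 8.20 against 8.04, 8.03 and 8.13 in PBM) the ranges overlapped, with a difference of 0.15±0.12.

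Stat3, the transcription factor that carries the signal of gp130 to the nucleus, was the only member called in each light comparison whichever 1 array was left out. Levels were 8.73, 8.78 and 8.56 in Control and 10.41, 11 and 10.73 in LD, a gap of more than 1.6 between the ranges. The rise was 2.03±0.18 (4.07-fold, adjusted p = 1.23e-05, limma). It was 2.17±0.18 in SafLD (10.29, 10.80 and 10.92 against 8.53, 8.26 and 8.70 in Saffron, adjusted p = 3.08e-06) and 1.26±0.18 in PBMLD (9.999, 9.87 and 10.28 against 8.83, 8.74 and 8.79 in PBM, adjusted p = 0.00249). All 9 light-exposed retinas lay above all 9 unexposed ones. With 1 array left out in turn, the LD rise ran from 1.88 to 2.18, the SafLD rise from 2.05 to 2.36 and the PBMLD rise from 1.15 to 1.35.

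Cebpd, a transcription factor of the acute-phase response that STAT3 is known to switch on, rose in each of the 3 comparisons. Levels were 7.03, 6.80 and 6.99 in Control and 8.04, 8.73 and 8.59 in LD, with no overlap. The rise was 1.52±0.20 (2.86-fold, adjusted p = 6.95e-04, limma). In SafLD the 3 retinas lay close together, at 8.19, 8.07 and 8.18 against 7.12, 7.20 and 6.80 in Saffron, and the rise was 1.11±0.20 (adjusted p = 0.00675, limma). The PBMLD retinas were spread from 7.42 to 8.39, with 7.97 between, against 6.85, 6.91 and 6.999 in PBM, and the rise of 1.01±0.20 was at the limit of the call (adjusted p = 0.042, limma). Without Saffron 3 the SafLD difference was 0.99, which is under 2-fold.

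Of the 4 feedback inhibitors, Socs3 and Cish were called in each light comparison, Socs2 passed the adjusted p in LD alone and was under 2-fold there, and Socs1 did not differ beyond its spread. Socs3, which blocks gp130 and the kinases bound to it, had levels of 5.49, 5.13 and 5.55 in Control and 7.57, 8.96 and 8.65 in LD. The LD retinas lay at least 2 units above every Control retina, and the rise was 3.01±0.34 (8.03-fold, adjusted p = 1.69e-04, limma). In SafLD the levels of 7.80, 8.21 and 8.60 stood against 5.28, 5.60 and 5.64 in Saffron (2.70±0.34, adjusted p = 2.00e-04, limma). In PBMLD the levels were 6.34, 7.71 and 7.32 against 5.54, 4.93 and 5.65 in PBM (1.75±0.34, adjusted p = 0.0379, limma). All exposed retinas were above all unexposed ones, and PBMLD 1 was the lowest of the exposed.

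Cish, the inhibitor of STAT5-linked receptors whose promoter window holds the 4 palindromes, had the largest estimated rise of the 10 genes in LD. Levels were 7.14, 7.15 and 6.93 in Control and 9.83, 10.86 and 10.60 in LD, and the rise was 3.36±0.50 (10.2-fold, adjusted p = 0.00158, limma). In SafLD the levels were 8.98, 10.23 and 10.52 against 7.02, 6.64 and 6.85 in Saffron (3.07±0.50, adjusted p = 0.00212). The PBMLD retinas covered nearly the whole distance, at 7.67, 10.54 and 9.22 against 6.67, 6.60 and 6.81 in PBM, so that PBMLD 2 reached the LD levels while PBMLD 1 lay near the unexposed retinas. The rise in PBMLD was 2.45±0.50 (adjusted p = 0.0429, limma).

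Socs2, which restrains growth hormone signalling, was at 6.92, 6.85 and 6.52 in Control and 7.35, 7.98 and 7.80 in LD. The groups did not overlap, and the difference of 0.94±0.21 passed the adjusted p (0.0339, limma) but fell short of 2-fold; without LD 1 it was above 2-fold and called (adjusted p = 0.00934). In SafLD (7.09, 7.60 and 7.67 against 6.86, 6.58 and 6.72 in Saffron) it was 0.73±0.21 (adjusted p = 0.0775, limma). In PBMLD (6.80, 7.51 and 6.84 against 6.83, 6.91 and 6.66 in PBM) the ranges overlapped and the difference was 0.25±0.21.

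Socs1, whose promoter window holds 1 palindrome, was at 6.43, 6.14 and 6.43 in Control and 6.03, 5.93 and 6.45 in LD. The retinas of the 2 groups were intermixed, with a difference of -0.19±0.24 (95% interval -0.69 to 0.30, adjusted p = 0.878, limma). The differences in PBMLD and SafLD were -0.01±0.24 and 0.01±0.24. In the PBM group the levels of 5.62, 6.38 and 6.61 had the widest range of the 6 groups. A 2-fold change of Socs1 lay outside the 95% interval in each of the 3 light comparisons.

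**Figure D2:**
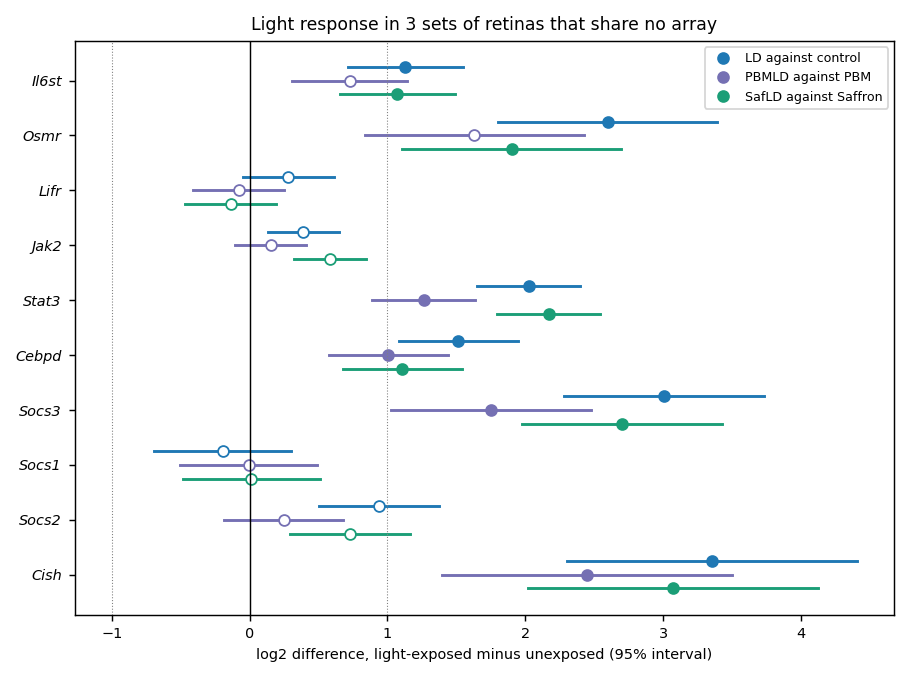
Log2 difference between light-exposed and unexposed retinas (horizontal axis, with 95% intervals from limma, 3 arrays per group) for the 10 genes, in 3 comparisons that share no array. Filled points were called (adjusted p below 0.05 over all probe sets and more than 2-fold, dotted lines); Stat3, Socs3, Cish and Cebpd are filled in all 3, and Lifr and Socs1 lie near 0.

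The weakest of these calls were those of Socs3, Cish and Cebpd in PBMLD against PBM. With 1 of the 18 arrays left out in turn, Socs3 was not called in 11 fits (adjusted p from 0.00539 to 0.212 over all 18), Cish in 14 (8.46e-04 to 0.186) and Cebpd in 12 (0.00435 to 0.175), and arrays of the other groups were among those that ended the call; without PBMLD 2 the adjusted p values were 0.15, 0.134 and 0.151. The lens and pigment epithelium levels given above lay over those of every Control retina in LD 1 and LD 3, and not in LD 2. In LD 2, where lens markers were at 9.20 and within 0.04 of the lowest Control retina, Stat3, Socs3, Cish, Cebpd and Socs2 had their highest levels of the LD group, while Osmr, Il6st and Jak2 were highest in LD 3, where lens markers were at 11.29. With the lens level as a covariate, a setting chosen after the data were seen, the LD differences were 2.29 for Stat3, 3.62 for Socs3, 4.12 for Cish, 2.99 for Osmr, 1.32 for Il6st and 1.74 for Cebpd, all called. In SafLD against Saffron the calls of Osmr, Il6st and Cebpd were lost with this covariate (adjusted p = 0.0566, 0.0351 and 0.0338, the last 2 under 2-fold).

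The retinas of each pretreated and exposed group were also set against the same 3 Control retinas as LD, so these values are not separate evidence. In SafLD against Control the same 6 genes were called as in LD (background 0.921%): Stat3 at 1.98±0.18, Socs3 at 2.82±0.34, Cish at 2.84±0.50, Osmr at 1.92±0.38, Il6st at 1.04±0.20 and Cebpd at 1.21±0.20. In PBMLD against Control 2 genes were called (background 0.366%), Stat3 at 1.36±0.18 (adjusted p = 4.14e-04, limma) and Socs3 at 1.74±0.34 (adjusted p = 0.0212). Cebpd (0.99±0.20, adjusted p = 0.0288) and Il6st (0.91±0.20, adjusted p = 0.0402) passed the adjusted p and were just under 2-fold, and Cish was at 2.07±0.50 (adjusted p = 0.0654) and Osmr at 1.05±0.38 (adjusted p = 0.263). In SafLD against Control, Il6st was not called without Control 3, SafLD 2 or SafLD 3 (differences of 0.86, 0.97 and 0.91), nor Osmr without Control 1 or SafLD 3 (adjusted p = 0.0582 and 0.051). In PBMLD against Control, Socs3 was not called without any 1 of the 3 Control arrays or without PBMLD 2 or 3 (adjusted p = 0.0575 to 0.103), and without PBMLD 1 Cish (2.81), Osmr (1.57) and Cebpd (1.24) were called as well, which made 5 genes. Without Control 1, Control 3 or PBMLD 3 Stat3 alone was called.

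PBMLD and SafLD were compared directly with LD to ask whether either pretreatment altered the exposed retina. In PBMLD none of the 10 genes was called by limma (background 0.216%), although 8 of the 10 estimates were below 0 and the median was -0.59 against 0.04 over all probe sets. At an unadjusted p below 0.05 there were 6 genes, all lower, against 11.5% of all probe sets, and the methods' t-test with the 2-fold limit called 0 of the 10, both unadjusted (0.424% of all probe sets) and adjusted (0%). Osmr was at -1.55±0.38 (adjusted p = 0.106), Cish at -1.29±0.50 (0.338), Socs3 at -1.27±0.34 (0.156), Stat3 at -0.66±0.18 (0.148), Socs2 at -0.66±0.21 (0.231) and Cebpd at -0.53±0.20 (0.335). In Stat3 all 3 PBMLD retinas lay below all LD retinas, as did 4.41% of all probe sets, and in the other 9 genes the ranges overlapped. The remaining 4 genes were at -0.22±0.20 (Il6st), -0.08±0.12 (Jak2), 0.06±0.16 (Lifr) and 0.06±0.24 (Socs1).

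The outcome of this comparison turned on single retinas. Without LD 1, which had the lowest levels of Stat3, Socs3, Cish, Osmr and Cebpd in its group, Osmr (-2.04, adjusted p = 0.00737, limma) and Socs3 (-1.68, adjusted p = 0.0241) were called lower in PBMLD. Without PBMLD 2, Osmr (-1.90, adjusted p = 0.0365) and Cish (-1.99, adjusted p = 0.0445) were called. Without PBMLD 1, which had the lowest levels of Socs3, Cish, Osmr and Cebpd among all exposed retinas, the estimates shrank to -1.03 for Osmr (adjusted p = 0.27), -0.88 for Socs3 (0.354) and -0.55 for Cish (0.633). With the lens level as a covariate Socs3 alone was called (-1.64, adjusted p = 0.0208). Lens markers were at 11.40 in LD 1, the highest of all arrays, and at 10.55 in PBMLD 1, the highest of the PBMLD arrays; the part of lens RNA was not tested beyond that covariate. Pigment epithelium markers were at 4.89 in PBMLD 1, the lowest of all arrays, 6.74 in PBMLD 2 and 6.03 in PBMLD 3. This was the same order as Socs3, Cish, Osmr and Cebpd in these 3 retinas. In LD, where the markers were at 6.93, 6.40 and 7.10, none of these genes had their order. In SafLD, with markers at 6.22, 5.48 and 6.04, Osmr and Cebpd had their order and Socs3 and Cish did not. The median difference of the markers in PBMLD against LD was -0.63 (7 genes, 0 called). The part of pigment epithelium RNA in the result was not tested.

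In SafLD against LD none of the 10 genes was called either (background 0.257%), and 0 had an unadjusted p below 0.05 (background 9.55%). The methods' t-test with the 2-fold limit called 0, unadjusted (0.596% of all probe sets) or adjusted (0%). Osmr was at -0.68±0.38 (95% interval -1.48 to 0.12), Cish at -0.52±0.50 (-1.57 to 0.53), Socs3 at -0.19±0.34 (-0.92 to 0.54) and Stat3 at -0.05±0.18 (-0.42 to 0.33). For Stat3 the interval thus left no room for a 2-fold difference, whereas for Osmr and Cish it did. The median of the 10 estimates was -0.22.

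**Figure D3:**
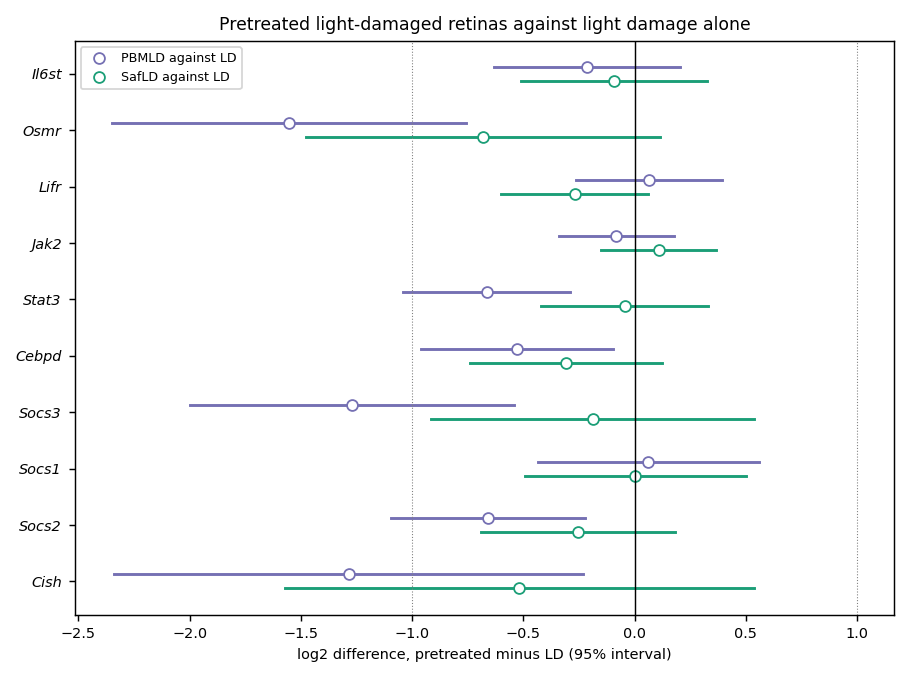
Log2 difference of PBMLD and SafLD from LD (horizontal axis, with 95% intervals from limma, 3 arrays per group) for the 10 genes; both comparisons use the same LD retinas. No point is filled, since none was called over all probe sets; the PBMLD intervals of Osmr, Socs3, Cish, Stat3, Socs2 and Cebpd end below 0, and all SafLD intervals include 0.

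The pretreated groups were also compared with each other. In PBMLD against SafLD limma called 0 genes (background 0%), as did the methods' t-test with the 2-fold limit, unadjusted (0.11% of all probe sets) or adjusted (0%). At an unadjusted p below 0.05 there were 4 of the 10 (background 8.32%), of which Socs3 (-1.08±0.34, adjusted p = 0.487), Osmr (-0.87±0.38, 0.57) and Stat3 (-0.62±0.18, 0.461) had estimates below 0 and Lifr (0.33±0.16, 0.595) one above 0. Cish, at -0.77±0.50, was not among them (unadjusted p = 0.142). All 3 PBMLD retinas lay below all SafLD retinas in Stat3, Socs3 and Osmr, and 5.23% of all probe sets were separated in that direction.

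Whether a pretreatment altered the light response itself was tested as the interaction of light with PBM or saffron. With PBM, 0 of the 10 genes were called by limma (background 0.00685%), and 3 had an unadjusted p below 0.05 (background 4.26%): Stat3 (-0.76±0.25, unadjusted p = 0.00745), Socs3 (-1.26±0.49, 0.0195) and Socs2 (-0.69±0.29, 0.0291). The adjusted p was 0.999 for every one of the 10. The estimate was below 0 for 9 of the 10 genes, with a median of -0.60, and above 0 for Socs1 (0.19±0.33). With saffron, 0 genes were called (background 0.14%) and 0 had an unadjusted p below 0.05 (background 5.84%), with a median of -0.25 and Stat3 at 0.14±0.25. A difference between the light responses of pretreated and untreated retinas was therefore not shown for any of the 10 genes.

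Without bright light none of the 10 genes was called against Control after either pretreatment. In PBM against Control limma called 0 (background 0.133%), 1 gene had an unadjusted p below 0.05 (background 9.96%), and the methods' t-test with the 2-fold limit called 0, unadjusted (0.308% of all probe sets) or adjusted (0.0205%). That gene was Lifr, at 8.50, 8.22 and 8.28 against 7.997, 8.16 and 7.57 in Control (0.43±0.16, adjusted p = 0.378). All PBM retinas lay above all Control retinas in Lifr, as did 11.8% of all probe sets, and below them in Cish (-0.38±0.50) and Osmr (-0.59±0.38), as did 11.4% of all probe sets. In Saffron against Control limma called 0 (background 0%), 0 had an unadjusted p below 0.05 (background 4.6%), and the t-test called 0, unadjusted (0.089% of all probe sets) or adjusted (0%). The estimates with saffron ran from -0.24±0.50 for Cish to 0.15±0.16 for Lifr.

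The rest of the pathway was read from lists of its ligands, receptors, kinases, factors, inhibitors and targets. These lists were chosen with earlier results of these data known, so the counts describe them and are no test of the pathway. Of 57 such genes measured out of 63 listed, 14 were called higher in LD, 1 in PBMLD against PBM and 11 in SafLD against Saffron, and none was called lower. Over all probe sets with 1 gene symbol, 0.764%, 0.176% and 0.588% were called higher in these comparisons. Of the 7 ligands measured, Lif and Clcf1 were called higher in LD. Lif, which encodes leukemia inhibitory factor, was at 5.02, 5.17 and 5.36 in Control and 6.90, 8.43 and 7.84 in LD (2.54±0.57, adjusted p = 0.041, limma). In SafLD it was at 7.44, 7.47 and 8.48 against 5.25, 5.15 and 5.18 in Saffron (2.60±0.57, adjusted p = 0.0231). In PBMLD it was spread from 5.32 to 8.78, with 6.59 between, against 4.90, 5.11 and 5.48 in PBM (1.74±0.57, adjusted p = 0.342), so that PBMLD 1 fell within the range of the PBM retinas.

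Clcf1, a ligand of the ciliary neurotrophic factor receptor, was at 5.36, 5.30 and 5.64 in Control and 6.56, 7.56 and 7.28 in LD (1.70±0.30, adjusted p = 0.00671, limma). It was called in SafLD too (1.27±0.30, adjusted p = 0.0336) and not in PBMLD (0.70±0.30, adjusted p = 0.544). Il6, with intensities near the bottom of the scale, was at 0.83±0.22 in LD (adjusted p = 0.0844), and the other 4 ligands measured (Il11, Osm, Cntf and Ctf1) lay within 0.3 of 0 in LD. None of the 3 ligand-binding receptors was called in any light comparison, with Cntfr at -0.44 and Il6r at 0.30 in LD.

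Of the other kinases, Jak3 was at 0.76±0.17 in LD (adjusted p = 0.0354, limma), under 2-fold, and Jak1 at 0.16. None of the 5 other STAT genes measured was called in LD, Stat2 having the largest difference (0.29). Among 12 further inhibitors Ptpn1, a phosphatase that acts on Janus kinases, was called in LD at 8.29, 8.76 and 8.80 against 7.57, 7.54 and 7.52 in Control (1.07±0.18, adjusted p = 0.00408, limma). It passed the adjusted p in SafLD but not the fold limit (0.96±0.18, adjusted p = 0.00675). None of the 6 genes linked to STAT5 signalling was called in LD, with Csf2rb at 0.81±0.29 (adjusted p = 0.279) and Il2rg at 0.61±0.22 (0.274).

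Of 22 genes measured that STAT3 is known to raise, many of which also answer to other factors, 11 were called higher in LD: Junb, Fos, Sbno2, Timp1, Serpina3n, Lcn2, Cp, Icam1, Gfap, Fgf2 and Mt2A (0.764% of all named probe sets). This list, too, was chosen with earlier results known, so the share called is no test of STAT3 activity. The whole list of 22 had a median difference of 1.16 in LD and of 0.63 and 1.01 after PBM and saffron. Junb, an early transcription factor, was at 6.83, 6.89 and 7.14 in Control and 8.39, 9.43 and 9.07 in LD (2.01±0.29, adjusted p = 0.00124, limma). In SafLD 9 genes were called (background 0.588%), Edn2 in addition and Sbno2, Timp1 and Lcn2 not. In PBMLD Gfap, the filament protein of reactive glia, was the 1 gene called (background 0.176%), at 8.54, 9.05 and 9.43 against 6.53, 7.06 and 7.04 in PBM (2.13±0.27, adjusted p = 0.00105, limma).

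**Figure D4:**
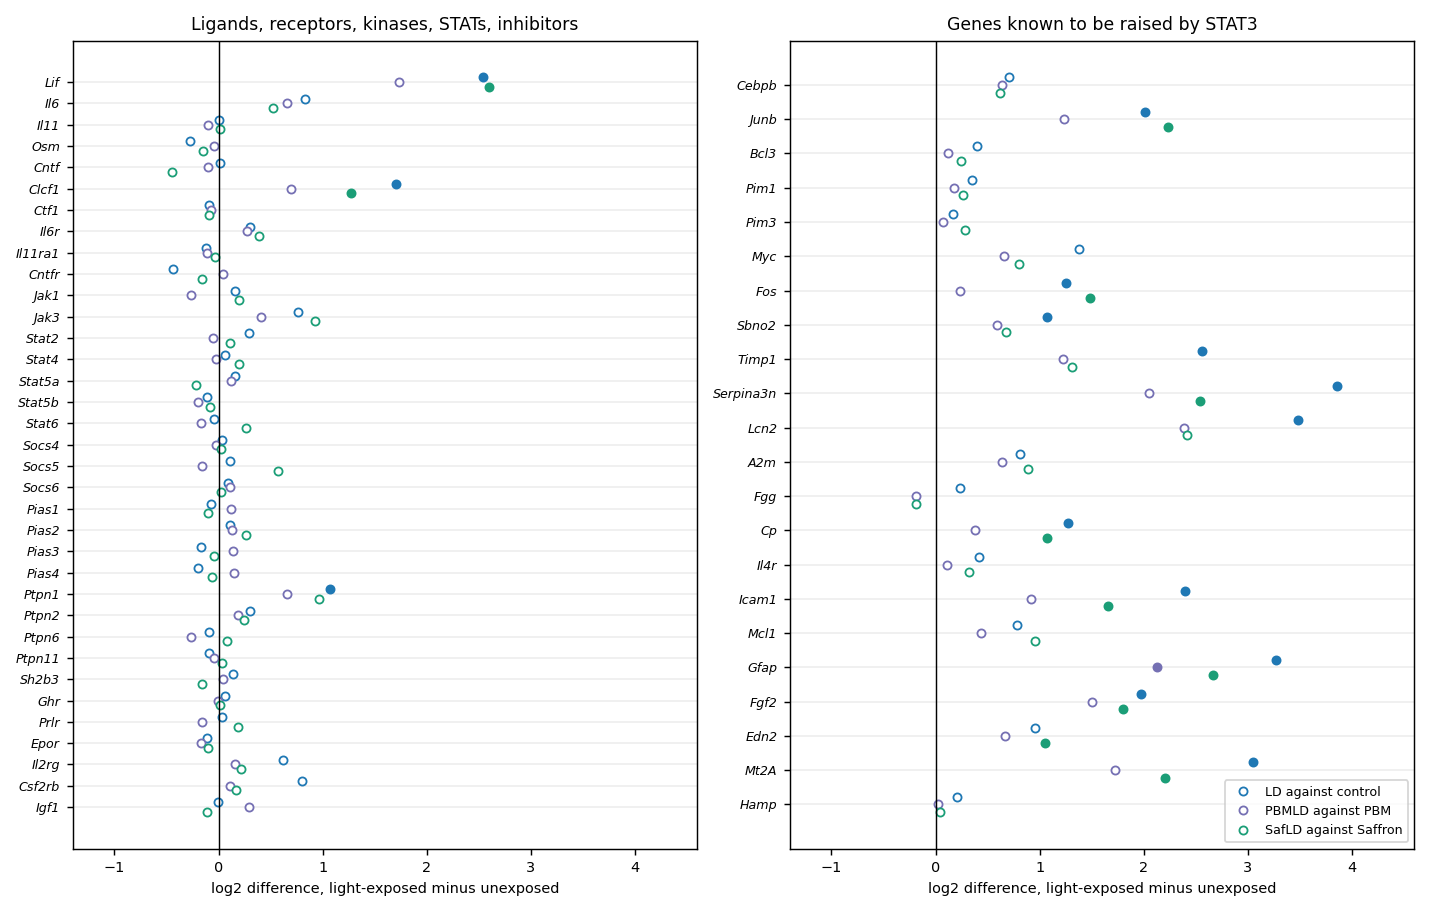
Log2 difference between light-exposed and unexposed retinas (horizontal axes) for the other measured genes of the pathway, in the 3 comparisons that share no array (3 arrays per group). Filled points were called; on the left these are Lif and Clcf1 in LD and SafLD and Ptpn1 in LD, and on the right 11 genes in LD, 9 in SafLD and Gfap in PBMLD.

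The genes whose levels followed each member most closely over the 18 arrays were listed as a description; all arrays and the light exposure are shared, so such correlations follow from any common light response. Stat3 was followed by Slc14a1, a urea transporter, and Ahr, a ligand-activated transcription factor (both r = 0.98), and by Slc25a30, a mitochondrial carrier (r = 0.98). Socs3 was followed by Junb (0.98), Irf9 (0.98) and the metallothionein Mt2A (0.98), and Cish by the early transcription factors Fosl1, Atf3 and Junb (all 0.98). Osmr was followed by the interferon-induced Gbp2 (0.98), Ccl3 (0.97) and Pdpn (0.97), Il6st by Dlg1 (0.97), Btbd3 (0.97) and Ahr (0.96), and Cebpd by both probe sets of Mt2A (0.98) and by Fosl1 (0.97). For Socs2 the nearest were Gadd45g (0.96), Rdh10 (0.95) and Sod2 (0.94), and for Jak2 they were Xpot (0.93), Slc25a30 (0.92) and Vldlr (0.91). The genes nearest to Lifr (Myo5a, 0.88) and Socs1 (Rph3al, 0.79) followed less closely.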

How the data were processed

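RNA of 18 retinas in 6 groups of 3 was hybridised to 18 rat Gene 1.0 ST arrays (Affymetrix). The authors deposited a log2 intensity for every probe set, made by RMA, and the tool in the submitters' processing notes is Expression Console 1.1.2800.19935. The values ran from 1.37 to 14.03 and were used as deposited; the probe-level steps cannot be redone from them. RMA adjusts arrays to a common distribution, so that changes are relative to the other probe sets. Of 29214 probe sets, 15310 carried 1 gene symbol in the platform table, 323 several and 13581 none. Groups were taken from the labels.

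The members were matched by symbol, the brightest probe set per gene, which here was the only one of each. Members and gene lists were chosen with earlier results of these data known. The named genes are all members, the called genes of each list and otherwise at most the 2 with the largest change in LD, the 3 nearest genes of each member, and a few examples picked after their values were seen. All arrays entered 1 model in limma 3.58.1 (R 4.3.3; 12 residual degrees of freedom, prior 5.05), two-sided, adjusted over all probe sets within each of 12 comparisons, and the fit was tested on simulated data. The number of arrays limits the precision, and p-values measure the spread between these retinas. Alternatives were the methods' t-test, a fit of only the groups compared, robust fitting with a variance trend, weights for arrays, no fold limit, 3 other scalings, dim probe sets left out, the replicate number as a block and each array left out. Added after the data were seen were the lens level as a covariate and a fit without unidentified probe sets, those numbered below the first in the platform table. Promoter sequences are those of RefSeq for GRCr8.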

Additional observations from a re-analysis of the deposited data

How the results depend on the processing

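Over 31 alternatives there were 3648 values for a member and comparison. Of these, 3525 kept their side of the threshold, 93 lost a call and 30 gained one. Genes called in the fit of all 18 arrays reversed direction in 0 cases. Some values that were not called changed sign, such as Socs1 in SafLD against LD in 7 of its 31 alternatives. Of 366 counts of called members, 334 stayed within 1.5 times. The adjusted t-test called 0 members in LD against Control, PBMLD against PBM, SafLD against Saffron, PBMLD against Control and SafLD against Control, where with 3 arrays a group it called 0 to 5 of all 29214 probe sets in those comparisons. The count of 4 in PBMLD against PBM became 1 with the 2 groups alone, and 2 each with a variance trend and robust fitting, with quantile normalization and with cyclic loess. The count of 2 in PBMLD against Control became 1 with the 2 groups alone and 4 with no fold limit. With the lens level as a covariate, chosen after the data were seen, the counts were 3 in SafLD against Saffron, 4 in PBMLD against Control and 1 in PBMLD against LD. Leaving out unidentified probe sets was also chosen after the data were seen. Cish was then called in PBMLD against Control (2.07, adjusted p = 0.0424, limma). With each array left out in turn the counts ran from 5 to 7 in LD against Control, from 1 to 5 in PBMLD against PBM, from 4 to 6 in SafLD against Saffron, from 1 to 5 in PBMLD against Control, from 4 to 6 in SafLD against Control and from 0 to 2 in PBMLD against LD. The replicate number as a block gave 6, 4 and 6 members in the 3 light comparisons and 3 in PBMLD against Control. Stat3 was then at 1.26 (adjusted p = 0.0045, limma) in PBMLD against PBM. A pairing of retinas by number was not evident: 10 of 45 same-number pairs of deviations correlated above 0.1 (r from -0.39 to 0.31). These correlations cannot show whether same-numbered retinas were handled together. Leaving out dim probe sets removed Osmr, and the mean of all probe sets of a gene gave no further value because each member has 1. Il6st in LD against Control fell under 2-fold with array weights (0.97). The causes of these shifts were not tested.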
